A study of Mus musculus with 144 samples.

Results

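The liver ageing difference between genotypes is the change of each liver transcript from 6 to 24 months in nmrHAS2 mice minus the same change in CreER control mice. It was taken from all 24 liver libraries of a mouse series of 144 libraries, with females and males weighted equally, and it was described across the 17270 genes of 40946 in the file that passed the filter on low counts. Livers of 4 kinds of animals entered per sex: CreER at 6 months, CreER at 24 months, nmrHAS2 at 6 months and nmrHAS2 at 24 months, each with 3 libraries, which gives 8 groups of 3 and 6 libraries per genotype and age. The nmrHAS2 mice carry the hyaluronan synthase 2 gene of the naked mole-rat as a transgene, and the CreER mice are the controls, named for the inducible Cre recombinase. Strain, drug treatment, the promoter that drives the transgene and the identity of the animals are not given in the labels, so the errors and p-values here describe how much these libraries vary, which may be partly technical. The series looks for what lies behind the longer life and health of the transgenic mice.

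Hyaluronan is a long, unbranched sugar polymer of the extracellular matrix. It is spun out at the plasma membrane by the synthases Has1, Has2 and Has3, bound by receptors such as Cd44 and the scavenger receptor Stab2 of liver sinusoids, and cut by hyaluronidases and lysosomal enzymes; the liver is a main site of its clearance from blood. In the ageing mouse liver, resident macrophages called Kupffer cells, recruited leukocytes and matrix transcripts usually become more abundant, while many transcripts of hepatocyte metabolism become less abundant.

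In these data that ageing pattern was smaller in nmrHAS2 than in CreER livers. The ageing difference passed the threshold for 2249 genes with a lower value in nmrHAS2 (13% of the genes tested) and for 2391 with a higher value (13.8%), by edgeR's quasi-likelihood test at an adjusted p of 0.05 (Benjamini-Hochberg over all genes). Of the 2249 lower genes, 2162 rose with age in CreER, and 1459 of these were not called with age in nmrHAS2 while 693 rose there as well. Of the 2391 higher genes, 2178 fell with age in CreER, and 1815 of these were not called with age in nmrHAS2 while 334 fell there too. The difference is built from these same changes, so the counts describe it and do not test it. The median over all genes tested was 0.10 on the log2 scale. With another scaling of the libraries (RLE size factors) the calls were 1816 higher and 2508 lower, so the share of higher calls moved from 51.5 to 42%.

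**Figure D1:**
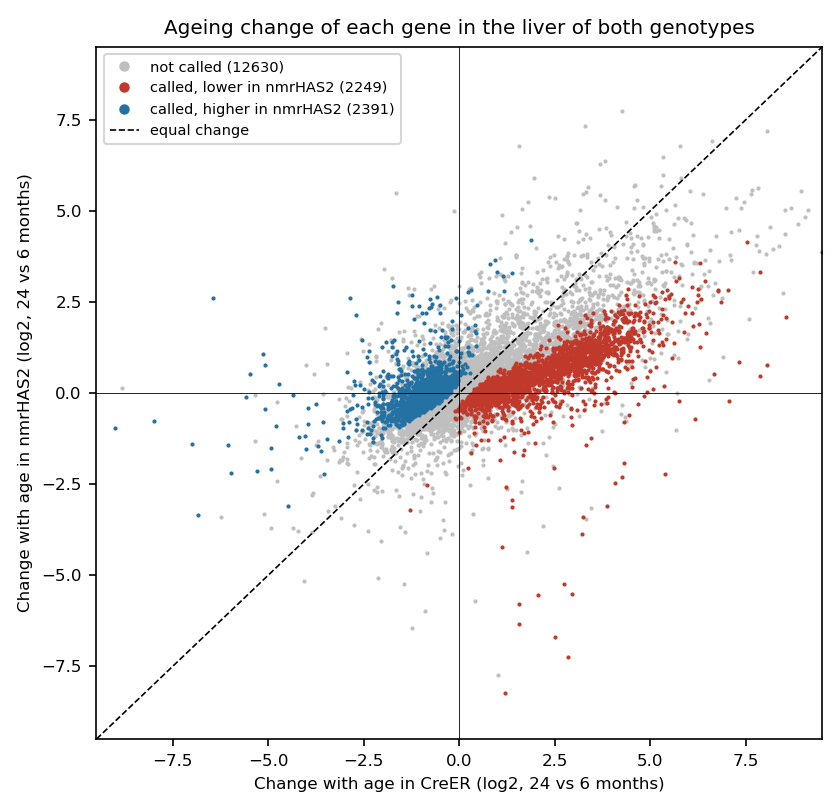
Change with age of each of the 17270 genes tested (log2, 24 against 6 months) in CreER on the horizontal and in nmrHAS2 on the vertical axis, with genes called for the difference in colour, the line of equal change dashed and 7 genes outside the axes. Most of the 2249 genes called lower lie right of 0 and below the line, and most of the 2391 called higher lie left of 0 and above it.

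The change with age had a standard deviation across genes of 1.465 (log2) in CreER and 0.874 in nmrHAS2, as the plot of both changes shows. The 2 sets of libraries had none in common, and across genes, which are not independent replicates, Pearson's r was 0.66 and Spearman's rho 0.607. With age, 9540 genes changed in CreER (55.2%), of which 4656 rose (27%) and 4884 fell (28.3%), against 2960 in nmrHAS2 (17.1%), of which 1914 rose (11.1%) and 1046 fell (6.06%). Between genotypes, 8 genes differed at 6 months (0.0463%), 6 higher (0.0347%) and 2 lower (0.0116%) in nmrHAS2, and 6376 at 24 months (36.9%). Of the 2249 genes with a lower ageing difference, 1953 were also called lower in nmrHAS2 at 24 months (18.3% of all genes were) and 5 were called higher at 6 months, namely Map4k4, Specc1l, Adamts4, Hecw2 and Rnf144a. Of the 2391 with a higher one, 1993 were called higher at 24 months (18.6% of all genes were) and 2, Zfp967 and Per2, lower at 6 months. These 7 genes lie outside the naming rule and were chosen after their values were seen. The ageing difference is also the 24-month comparison minus the 6-month one, so these overlaps describe it and do not test it.

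The libraries had 20.1 to 97.4 M counts with a median of 33.6 M. The 3 old male CreER libraries had TMM factors of 1.43 to 1.56 and the library old female nmrHAS2 3 had 0.704, while the others lay between 0.82 and 1.14. The libraries were of 3 kinds that the labels do not name. The 12 male livers had at most 0.0163% of the counts on 9 RNAs that lack poly(A) tails, and the 12 female livers at least 13.4%; among the latter, old replicates 1 and 2 of both genotypes had fewer values that are not whole numbers. The kinds were thus equally split between genotypes, but sex and kind cannot be told apart. The libraries young male nmrHAS2 2 and 3 had 3.46 and 5.68% of their counts on the 13 mitochondrially encoded genes against 10.6 to 11.2% in the other young males, and without both the difference called 2006 genes higher and 2171 lower. In bulk liver RNA, fewer cells of a type and less RNA per cell cannot be told apart. All 15 hepatocyte markers, albumin among them, passed the filter, and their summed level was at least 52910 CPM in every library. Levels here are CPM, a gene's count over the library's total after TMM scaling.

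The naked mole-rat transcript was scarce in liver. It had 38, 34 and 49 counts in the young female nmrHAS2 libraries, 3, 0 and 1 in the young males, 3, 1 and 21 in the old females and 1, 5 and 3 in the old males. The 12 CreER libraries had 0, apart from 1 count in young male 2 and 3 counts in old female 3. A library with no count could still hold up to 3 counts, or 0.0308 to 0.149 CPM depending on its depth (counting error only), so no fold or ageing difference is given. The mouse's own Has2 had 0 to 7 counts per library and did not pass the filter, and neither Has1 nor Has3 passed it.

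Macrophage and Kupffer cell transcripts had a lower ageing difference in nmrHAS2. Of 24 measured markers, 20 had a called lower ageing difference and none a higher one, with a list median of -2.45. In CreER, 22 of the 24 rose with age (median 3.65), and in nmrHAS2 17 rose (median 1.29). Their summed level was 311 to 1023 CPM in young CreER livers and 4215 to 10110 CPM in old ones, against 546 to 1926 CPM in young and 1174 to 4272 CPM in old nmrHAS2 livers. All 6 old CreER livers but the lowest lay above the highest old nmrHAS2 liver, which was old male nmrHAS2 1; the other 5 old nmrHAS2 livers were at 2121 CPM or less. At 6 months the median of the list was 0.63 higher in nmrHAS2, and at 24 months 1.78 lower (-1.78).

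Mpeg1, which encodes the pore-forming perforin-2 of phagocytes, had 27.6, 47.2 and 68.8 CPM (lowest, median and highest of 6 libraries) in young CreER and 326, 624.6 and 999 CPM in old CreER. In nmrHAS2 it had 56.8, 66.8 and 107 CPM at 6 months and 86.8, 206 and 501 CPM at 24 months. Every old CreER liver lay above every young one, whereas the ages of nmrHAS2 overlapped, and within each sex no old nmrHAS2 liver reached an old CreER liver. The ageing difference was -2.19 ± 0.24 (log2 ± standard error, adjusted p = 8.72e-05). Timd4, a receptor for phosphatidylserine that marks resident Kupffer cells, had 2.65, 5.04 and 8.18 CPM in young and 33.5, 46.9 and 102 CPM in old CreER, against 4.26, 6.79 and 22.5 CPM in young and 3.33, 11 and 12.3 CPM in old nmrHAS2. Its old CreER livers stood above all others, and in nmrHAS2 the change with age was 0.06 with overlapping ages. The difference was -3.38 ± 0.41 (adjusted p = 8.72e-05). Mrc1, the mannose receptor, differed by -2.17 ± 0.33 (adjusted p = 0.000264).

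**Figure D2:**
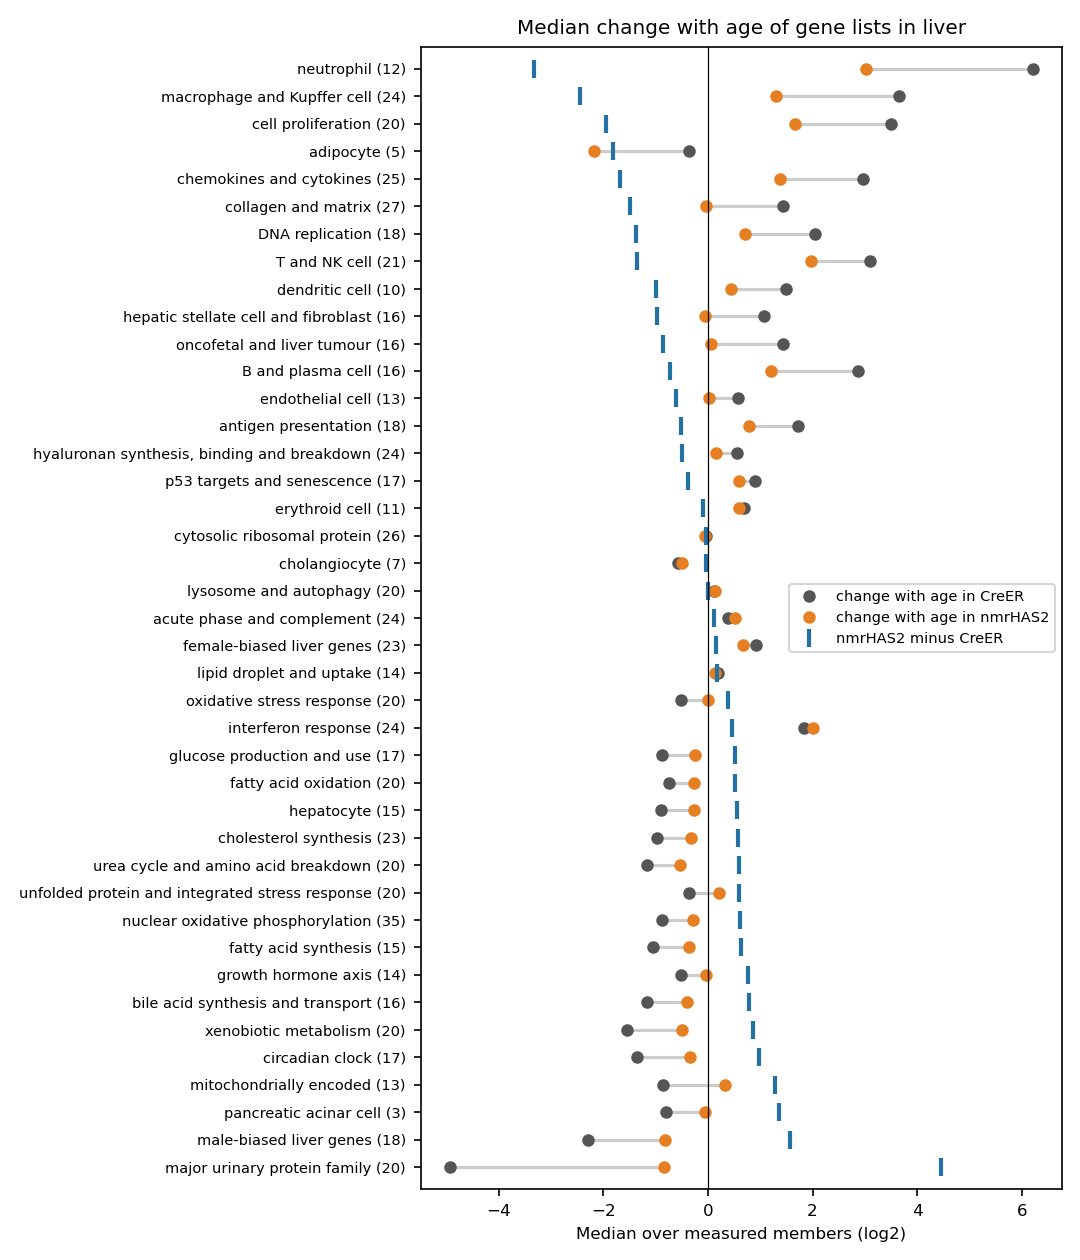
Median log2 change with age of each gene list in CreER (grey) and nmrHAS2 (orange), with the median of the members' differences as a blue bar and the number of measured members in brackets. For leukocyte, matrix and proliferation lists grey lies right of 0 and orange nearer to 0, for the xenobiotic, bile acid, amino acid, glucose, cholesterol and both fatty acid lists grey lies left of 0 and orange nearer to 0, and the interferon list lies right of 0 in both.

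The rule also named Clec10a, a galactose-binding lectin of macrophages and dendritic cells (-4.81 ± 0.79), Pf4, a platelet and macrophage chemokine (-4.19 ± 0.81), and Acod1, the itaconate-forming enzyme of activated macrophages (-4.28 ± 1.17). Clec10a ranged from 0 to 0.509 CPM in young CreER, from 5.61 to 34.3 CPM in old CreER, from 0.273 to 1.08 CPM in young nmrHAS2 and from 0.243 to 8.91 CPM in old nmrHAS2. The high value among the old nmrHAS2 livers was again that of old male 1, and the other 5 were at 1.22 CPM or less, below all old CreER livers. The call of Acod1 was lost without the library young male nmrHAS2 2 (-3.39, adjusted p = 0.167), whereas those of Clec10a and Pf4 held without each library in turn.

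Other leukocyte markers had fewer calls. All 12 neutrophil markers rose with age in CreER and 10 in nmrHAS2, and 5 (S100a8, S100a9, Mmp8, Mmp9 and Csf3r) had a called lower difference (median -3.33). Csf3r, the receptor for granulocyte colony-stimulating factor, differed by -2.30 ± 0.41 (adjusted p = 0.000579) and Mmp9, gelatinase B, by -4.49 ± 0.75 (adjusted p = 0.000438). Csf3r had 8.88 to 27.9 CPM in old CreER and 2.74 to 10.7 CPM in old nmrHAS2, so the groups overlapped at old male nmrHAS2 1. Without young male nmrHAS2 2 and 3, 2 of the 12 neutrophil markers were called and the median was -1.82. Of 21 T and NK cell markers 5 were called lower, beside 13% of all genes (median -1.36). They were the T cell co-receptor Cd4 (-2.94 ± 0.63), the activating receptor Klrk1 (-2.38 ± 0.44), Trbc1, Icos and Gzmb. All 21 markers rose with age in CreER and 15 in nmrHAS2. Of 16 B and plasma cell markers 3, Cd79a, Blk and Bank1, were called lower, beside 13% of all genes, with a median of -0.73 that was 0.15 in males alone. Their summed level was 600.5 ± 144 CPM in old CreER and 601.2 ± 113 CPM in old nmrHAS2 (mean ± SD, n = 6 each), which overlapped. Without young male nmrHAS2 2 and 3, 1 of the 16 was called lower and 1 higher. The heavy chain gene Ighm, singled out here after its values were seen, rose with age in both genotypes, to 130 to 356 CPM in old CreER and 64.6 to 244 CPM in old nmrHAS2 livers, with an ageing difference of -0.58 ± 0.47 that did not pass (adjusted p = 0.38). Of 10 dendritic cell markers 3 were called lower, beside 13% of all genes: Clec9a of cross-presenting dendritic cells (-1.79 ± 0.45), Fscn1 and Batf3.

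No gene of the chemokine or antigen presentation lists was called higher. Of 25 chemokines and cytokines 10 were called lower (median -1.68). Cxcl13, the attractant of B cells into lymphoid follicles, had 1.01, 1.94 and 4.08 CPM in young CreER and 94.7, 810 and 958 CPM in old CreER. It had 1.28, 3.16 and 14.7 CPM in young nmrHAS2 and 2.88, 16.4 and 45.5 CPM in old nmrHAS2. All 6 old CreER livers were above all old nmrHAS2 livers, although old female CreER 1 at 94.7 CPM was far below the other 5, and the difference was -6.47 ± 0.88 (adjusted p = 0.000148). Ccl2, the main attractant of monocytes, differed by -4.03 ± 0.89, and by -2.66 without young male nmrHAS2 2. The membrane-bound chemokine Cxcl16 differed by -2.17 ± 0.33. Of 18 antigen presentation genes 8 were called lower (median -0.51, with -1.31 in females and -0.10 in males), and 3 in males alone. The 8 were the class II genes and their partners, such as Cd74, the invariant chain (-2.80 ± 0.59), and H2-DMb1, a peptide loading subunit (-2.82 ± 0.49), with Ciita, their transactivator, and the class I gene H2-D1. The class I genes H2-K1 (-0.13 ± 0.20) and B2m (0.27 ± 0.21) did not pass.

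The interferon response genes did not share this direction. Of 24 measured, 20 rose with age in CreER and 23 in nmrHAS2, with medians of 1.83 and 2.01. For the difference 5 were called higher and 3 lower (median 0.46), beside 13.8% and 13% of all genes. The lower ones were Oas1a, Oas2 and Gbp2, and the higher ones Ifi27 (0.83 ± 0.21), Ifit1, Isg15, Iigp1 and Stat2. Isg15, a ubiquitin-like protein induced by interferon, had 37.4, 187 and 209 CPM in the old male nmrHAS2 livers against 13.7, 30.3 and 34.8 CPM in the old male CreER livers, without overlap. The old female libraries had 6.21, 2.06 and 2.73 CPM (nmrHAS2) and 4.78, 4.22 and 3.92 CPM (CreER) and overlapped. Across all interferon genes the median was 0.998 in males and -0.15 in females, and without young male nmrHAS2 2 and 3 the calls were 1 higher and 4 lower.

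**Figure D3:**
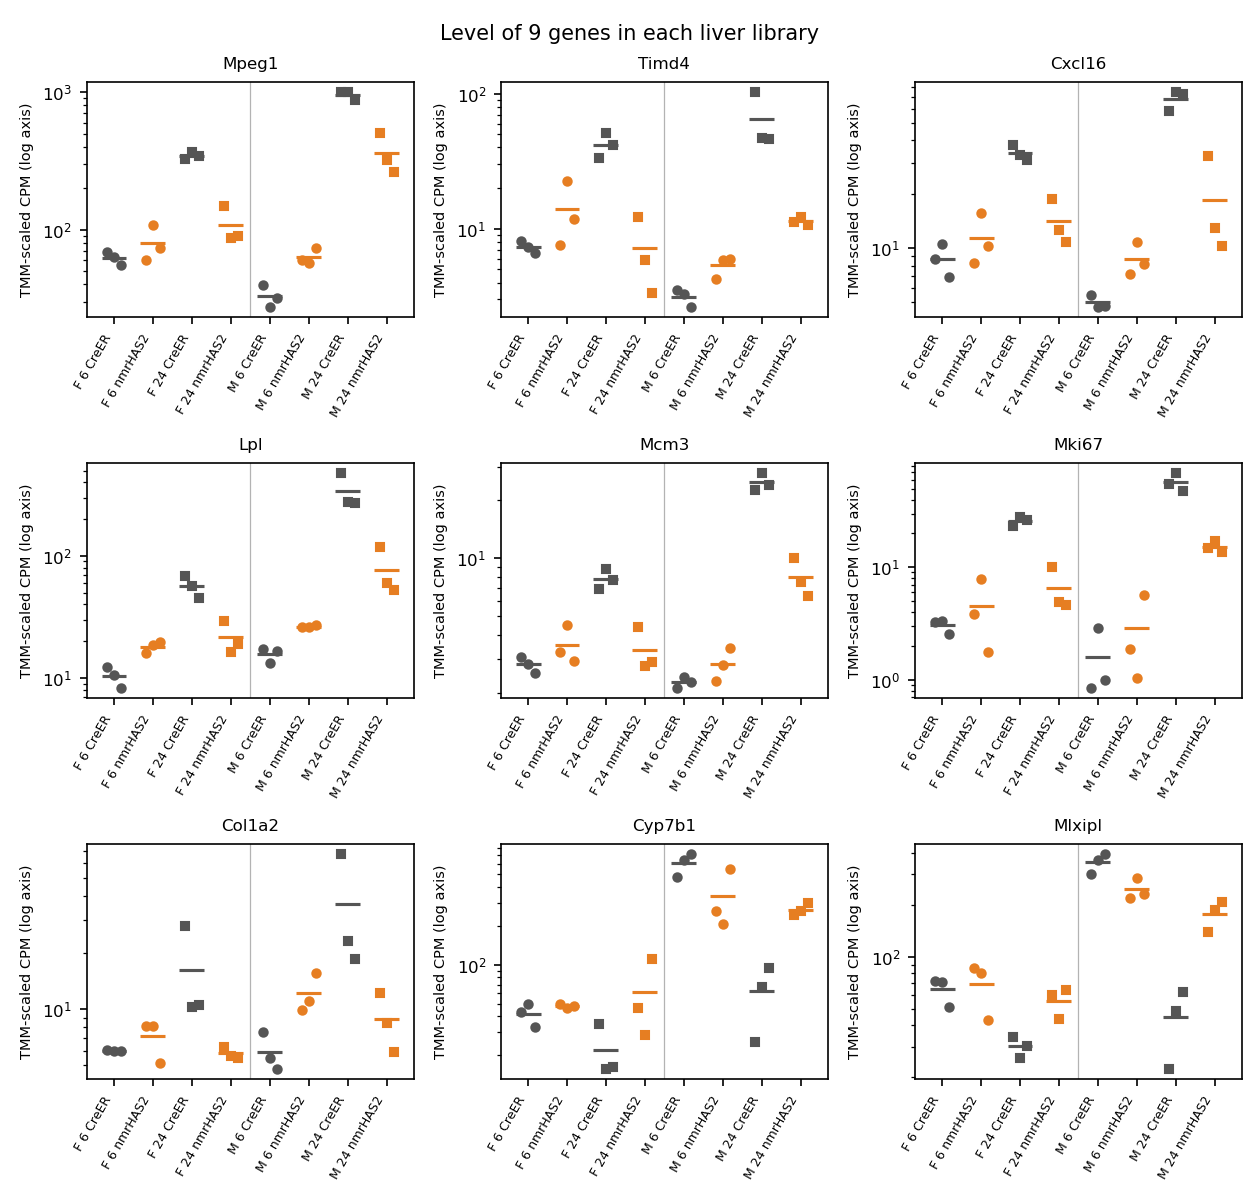
TMM-scaled CPM (log axis) of 9 genes in each of the 24 libraries, ordered by sex (F, M), age in months and genotype, with a bar at the mean of 3 libraries. For Mpeg1, Timd4, Cxcl16, Lpl, Mcm3, Mki67 and Col1a2 the old CreER livers of each sex lie above the old nmrHAS2 livers of that sex; for Cyp7b1 (males) and Mlxipl (both sexes) they lie below.

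Most matrix transcripts also had a lower ageing difference. Of 27 collagen and matrix genes 23 were called lower and none higher (median -1.50): 25 rose with age in CreER, and 4 in nmrHAS2. Col1a2, a chain of type I collagen, had 4.81, 5.98 and 7.50 CPM in young and 10.3, 20.8 and 66.9 CPM in old CreER, against 5.17, 9.04 and 15.6 CPM in young and 5.47, 6.08 and 12.1 CPM in old nmrHAS2. The old CreER livers lay above the young ones without overlap, while in nmrHAS2 the ages overlapped, and the difference was -2.40 ± 0.42 (adjusted p = 0.00056). Col1a1 differed by -2.98 ± 0.58, the basement membrane chain Col4a1 by -1.62 ± 0.29, and Tgfb1, a growth factor that drives collagen synthesis, by -2.20 ± 0.34. Fibronectin (Fn1), which hepatocytes also secrete and which made up most of the list's summed level, differed by 0.45 ± 0.21 and did not pass (adjusted p = 0.13). Of 16 stellate cell and fibroblast markers 11 were called lower (median -0.97), and their 6 old CreER livers, at 640.6 to 1123 CPM in sum, lay above the 6 old nmrHAS2 livers at 308 to 540.5 CPM. Lum, a collagen-binding proteoglycan, differed by -1.64 ± 0.30, whereas Acta2, the actin of activated stellate cells, did not pass (-0.45 ± 0.48, adjusted p = 0.529). Of 13 endothelial markers 7 were called lower and 1 higher: the adhesion molecules Cdh5 (-1.40 ± 0.29) and Pecam1 (-1.24 ± 0.25) were among the former, and the sinusoidal lectin Clec4g (0.70 ± 0.17) was the latter. Between genotypes the median of the endothelial list was 0.58 at 6 months and -0.14 at 24 months. Its summed level overlapped in old livers, at 354 to 589.5 CPM in CreER and 361 to 549 CPM in nmrHAS2. Of the 7 measured cholangiocyte markers none was called, and of 11 erythroid markers 1, Epb42, was called lower, beside 13% of all genes. Of 10 pancreatic acinar markers 7 were below the filter and none of the other 3 was called, and of 5 measured adipocyte markers 1, Fabp4, was called lower.

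Cell cycle transcripts rose with age in both genotypes and less so in nmrHAS2. All 20 proliferation genes rose in CreER (median 3.51) and 17 in nmrHAS2 (median 1.67), and for the difference 12 were called lower (median -1.96). Mki67, the Ki-67 antigen of dividing cells, had 0.854, 2.71 and 3.34 CPM in young and 23.4, 37.9 and 68.6 CPM in old CreER, against 1.04, 2.86 and 7.87 CPM in young and 4.64, 11.9 and 17 CPM in old nmrHAS2. Old CreER livers were above all others, the ages of nmrHAS2 overlapped, and the difference was -2.66 ± 0.52 (adjusted p = 0.00113). The topoisomerase Top2a differed by -2.92 ± 0.54 and the spindle motor Kif11 by -2.19 ± 0.30. Of 18 DNA replication genes 13 were called lower (median -1.38). The helicase subunit Mcm3 had 2.14, 2.48 and 3.08 CPM in young and 6.92, 15.8 and 27.7 CPM in old CreER, and 2.30, 3.10 and 4.50 CPM in young and 2.77, 5.4 and 10 CPM in old nmrHAS2. Its old CreER livers again lay above all young livers, and its difference was -1.76 ± 0.21 (adjusted p = 8.72e-05). Mcm4 (-1.59 ± 0.20) and Mcm7 (-0.84 ± 0.12) belong to the same helicase. Without young male nmrHAS2 2 and 3, 8 of the 20 proliferation genes and 13 of the 18 replication genes were called lower.

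Because these replication genes moved together, their promoters are shown with the core of the E2F site, through which the E2F factors switch on S phase genes in dividing cells. The motifs searched were TTTGGCGC and TTTCCCGC on both strands (GCGCCAAA and GCGGGAAA in reverse), of which the first can overlap its own reverse, in the 250 bases before the first listed RefSeq start (GRCm38.p6). A motif was found in 5 of the 16 replication genes with a listed promoter (31.2%), in none of 15 proliferation genes, in 286 of the 12211 promoters of genes tested (2.34%) and in 366 of all 27025 promoters (1.35%). Printed 5′ to 3′ on the gene's strand with the motif in capitals are 3 helicase genes, the ones of the Mcm family with a match among the listed promoters: Mcm5 (chr8:75109259-75109508, plus strand, ageing difference -2.92 ± 0.44), Mcm6 (chr1:128359706-128359955, minus strand, -2.16 ± 0.31) and Mcm7 (chr5:138171884-138172133, minus strand, -0.84 ± 0.12). A match describes these letters only.
Mcm5: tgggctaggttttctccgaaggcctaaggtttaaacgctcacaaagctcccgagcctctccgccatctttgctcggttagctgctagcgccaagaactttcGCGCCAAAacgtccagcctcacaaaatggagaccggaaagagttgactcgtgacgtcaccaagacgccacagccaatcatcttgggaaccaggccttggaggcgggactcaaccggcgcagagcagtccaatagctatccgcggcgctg
Mcm6: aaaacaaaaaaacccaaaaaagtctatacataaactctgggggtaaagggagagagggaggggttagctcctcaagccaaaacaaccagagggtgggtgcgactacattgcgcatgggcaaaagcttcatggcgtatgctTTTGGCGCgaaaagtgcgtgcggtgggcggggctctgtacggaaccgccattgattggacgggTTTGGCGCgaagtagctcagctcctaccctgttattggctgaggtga
Mcm7: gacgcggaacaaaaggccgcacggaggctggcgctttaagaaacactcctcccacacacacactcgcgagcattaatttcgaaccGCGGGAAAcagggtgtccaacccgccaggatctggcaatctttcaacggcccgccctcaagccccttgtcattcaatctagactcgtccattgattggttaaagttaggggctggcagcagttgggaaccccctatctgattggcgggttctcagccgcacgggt

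Of the 24 hyaluronan genes measured, 10 were called lower and 4 higher (median -0.50). Among the receptors, Cd44 had 3.02, 7.33 and 10.3 CPM in young and 26.7, 67.9 and 106 CPM in old CreER, against 7.04, 9.59 and 24.6 CPM in young and 14, 17.7 and 44 CPM in old nmrHAS2. All old CreER livers lay above all young livers, the ages of nmrHAS2 overlapped, and the difference was -2.12 ± 0.37 (adjusted p = 0.000579). The receptors Tlr2 (-2.56 ± 0.41) and Tlr4 (-2.38 ± 0.42), which sense microbial products and for which hyaluronan fragments have been described as ligands, Lyve1 of lymphatic and sinusoidal endothelium (-1.93 ± 0.58) and the clearance receptor Stab2 (-0.85 ± 0.23) were also lower. So was Vcan, a hyaluronan-binding proteoglycan (-3.16 ± 0.83). The calls of Lyve1, Stab2 and Vcan were not kept under every alternative. With females compared within library kind, which leaves 1 old female liver per genotype, their values were -1.75, -0.77 and -2.83. Hmmr, a hyaluronan receptor that also acts at the mitotic spindle, did not pass (-0.98 ± 0.52, adjusted p = 0.172).

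Among the breakdown genes, the lysosomal enzyme Hexa had 29.5, 33.3 and 37.1 CPM in young and 78.2, 106 and 150 CPM in old CreER, and 31.1, 40.2 and 47.2 CPM in young and 30.7, 46.4 and 97 CPM in old nmrHAS2. The CreER ages were separate and the nmrHAS2 ages overlapped, with a difference of -1.39 ± 0.21 (adjusted p = 0.000264) that was -1.39 in females and -1.38 in males. The glucuronidase Gusb (-1.04 ± 0.23) and the cell surface hyaluronidase Cemip2 (-0.89 ± 0.24) were lower as well. The hyaluronidases Hyal1 (0.59 ± 0.23, adjusted p = 0.0574), Hyal2 (0.24 ± 0.13, adjusted p = 0.175) and Hyal3 (0.76 ± 0.66, adjusted p = 0.419) had positive values that did not pass; Hyal1 and Hyal2 did pass in males alone (1.06 and 0.55). On the synthesis side, both enzymes that lead to the sugar donor were higher: Ugdh, which makes UDP-glucuronic acid (0.72 ± 0.22, adjusted p = 0.0175), and Ugp2, which makes UDP-glucose (0.60 ± 0.17, adjusted p = 0.0134), the latter with 0.02 in females and 1.17 in males. Habp4 (0.64 ± 0.14) and Itih4 (0.79 ± 0.26) were the other higher ones. The call of Itih4 was lost in 10 of the 24 fits that leave out 1 library. The heavy chains Itih1, Itih2 and Itih3 and their light chain Ambp, which hepatocytes secrete to be coupled to hyaluronan, did not pass (-0.15 to 0.37).

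**Figure D4:**
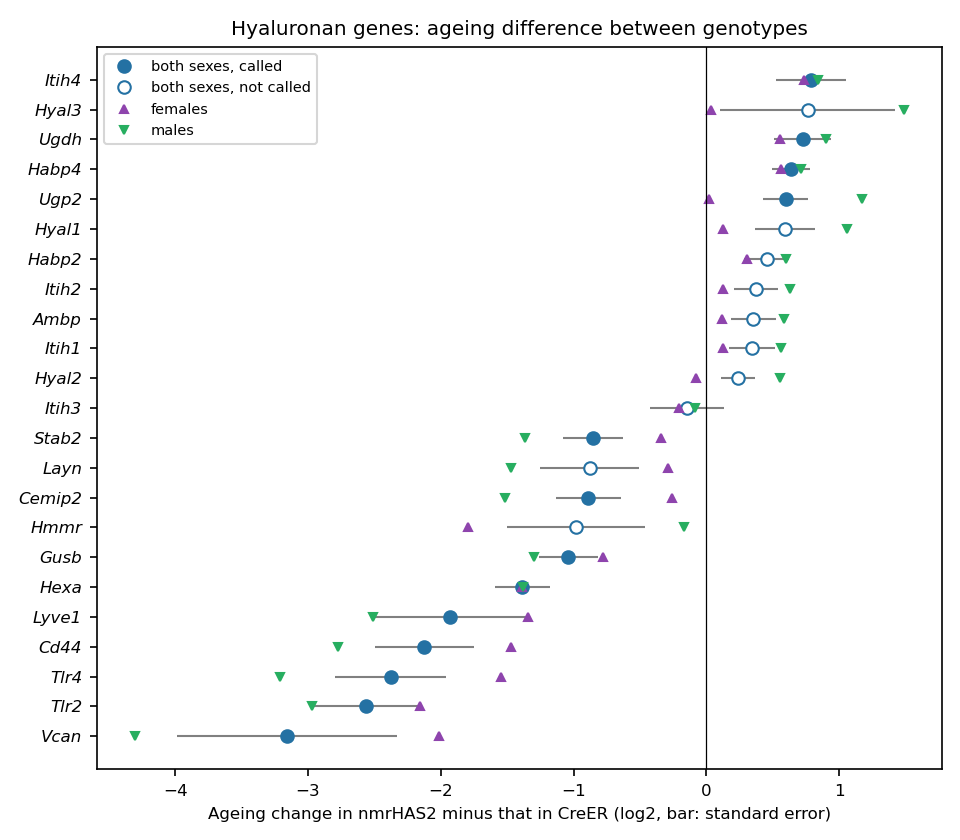
Ageing difference between genotypes (log2, bars for the standard error) of 23 hyaluronan genes, filled where called, with the values of females and males as small triangles. The receptors and the enzymes Hexa and Gusb lie left of 0, and the hyaluronidases Hyal1, Hyal2 and Hyal3 and the 2 sugar donor enzymes right of it; the male value lies farther from 0 than the female value for 20 of the 23 genes.

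With the sexes weighted equally, transcripts of hepatocyte metabolism fell with age in CreER, and fewer of them fell in nmrHAS2. Falls in CreER against nmrHAS2 numbered 18 against 8 of 20 xenobiotic genes and 13 against 5 of 16 bile acid genes. They numbered 18 against 10 of 20 genes of the urea cycle and amino acid breakdown. For fatty acid oxidation they were 14 against 3 of 20 genes, and for glucose 13 against 4 of 17. Among all genes tested, 4884 (28.3%) fell in CreER and 1046 (6.06%) in nmrHAS2, so having fewer falls in nmrHAS2 was not particular to these lists. In CreER males, fatty acid oxidation sums were 12790 to 14100 CPM in young and 2083 to 3558 CPM in old livers. In CreER females they were 10010 to 19640 and 15640 to 17450 CPM, which overlapped. Glucose sums were 7278 to 8901 and 2466 to 3579 CPM in CreER males, and 8307 to 9844 and 7377 to 7906 CPM in females. Xenobiotic, bile acid and urea cycle sums were lower in old than in young CreER livers of both sexes. Of the 15 hepatocyte markers 3 (Ttr, Serpina1a and Serpina1b) were called higher and 1 (Cyp3a11) lower, beside 13.8% and 13% of all genes. Their median was 0.55, with -0.05 in females and 1.05 in males. Of 16 bile acid genes 8 were called higher (median 0.79). Cyp7b1, the oxysterol hydroxylase of the alternative pathway, had 475 to 714 CPM in young male CreER and 25.2 to 95 CPM in old male CreER, against 205 to 545 CPM in young and 241 to 299 CPM in old male nmrHAS2. The old males of the 2 genotypes did not overlap, while females of all groups were at 110.3 CPM or less and overlapped. Over both sexes the difference was 2.12 ± 0.47 (adjusted p = 0.00261). Slc10a1, the bile acid uptake carrier, differed by 0.98 ± 0.22, with 0.03 in females and 1.93 in males. Without young male nmrHAS2 2 and 3, 4 of the 16 were called.

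Of 20 xenobiotic genes 14 were called higher and 1 lower (median 0.86, 0.20 in females and 1.64 in males). Their summed level fell from 19440 to 20710 CPM in young to 3770 to 7814 CPM in old male CreER, while male nmrHAS2 livers had 19550 to 21320 CPM at 6 and 15640 to 22800 CPM at 24 months. Females of both genotypes had lower sums at 24 than at 6 months, with 7831 to 9965 CPM in old CreER and 7014 to 7945 CPM in old nmrHAS2. The old males of the genotypes were separate, and the old females overlapped. Ugt2b5, a glucuronosyltransferase, differed by 1.20 ± 0.25 and the lung and liver P450 Cyp2f2 by 1.14 ± 0.26. The lower gene was Cyp3a11, the main drug-oxidising P450 of mouse liver, which had opposite signs in the sexes. Among old females nmrHAS2 livers had 24.6, 62.3 and 12 CPM and CreER livers 114, 1525 and 1553 CPM, and all 6 young females had 2599 to 4111 CPM. Among old males nmrHAS2 livers had 4045, 4555 and 5714 CPM and CreER livers 1686, 2353 and 2584 CPM. Old nmrHAS2 livers were thus all below the CreER livers in females and all above them in males. Its difference was -1.92 ± 0.60 over both sexes, -4.98 in females and 1.14 in males, and the last did not pass (adjusted p = 0.338).

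Lipid genes gave fewer calls. Of 15 fatty acid synthesis genes 5 were called higher (median 0.63): Dgat2, which closes triglyceride synthesis (1.07 ± 0.17), Mlxipl, the carbohydrate-sensing factor ChREBP (1.64 ± 0.29), the malic enzyme Me1 (1.65 ± 0.30), Thrsp (3.10 ± 0.75) and Acacb. Thrsp was at 1.90 without old female nmrHAS2 3, and at 1.70 in males only, where its call was lost. Dgat2 had 284 to 407 CPM in young and 80.6 to 221 CPM in old CreER, without overlap, and 235 to 361 CPM in young and 195 to 351 CPM in old nmrHAS2, which overlapped. The core enzymes Fasn (0.63 ± 0.38, adjusted p = 0.238) and Acaca (0.08 ± 0.24, adjusted p = 0.85) did not pass. Of 20 fatty acid oxidation genes 5 were called higher, beside 13.8% of all genes. They were the fatty acid carrier Fabp1 (1.399 ± 0.29), the carnitine enzyme Cpt2 (0.80 ± 0.18), Acadl, Acadvl and Acaa2. The median of the list was -0.17 in females and 1.11 in males. Of 23 cholesterol synthesis genes 3 were called higher, Tm7sf2 and Ebp among them, beside 13.8% of all genes. All 23 values were positive (median 0.57), and 19 of the genes fell with age in CreER and none in nmrHAS2. Of 14 genes of lipid droplets and uptake 2, Fabp4 and Lpl, were called lower, beside 13% of all genes. Lpl, which splits the triglycerides of lipoproteins, had the smallest p of all genes. It had 8.35, 12.9 and 17.2 CPM in young and 45.4, 171 and 475 CPM in old CreER, and 15.9, 22.8 and 26.9 CPM in young and 16.3, 40.7 and 119 CPM in old nmrHAS2. In each sex the old CreER livers lay above the old nmrHAS2 livers, and the difference was -2.54 ± 0.28 (adjusted p = 8.72e-05).

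Of 20 genes of the urea cycle and amino acid breakdown 8 were called higher (median 0.59, 0.05 in females and 1.18 in males), among them Otc, which joins carbamoyl phosphate to ornithine (1.10 ± 0.25). Of 17 glucose genes 8 were called higher (median 0.51), led by the glucagon receptor Gcgr. Gcgr had 133, 179 and 277 CPM in young and 43.6, 78.7 and 112 CPM in old CreER, against 132, 162 and 192 CPM in young and 103, 123 and 148 CPM in old nmrHAS2. The CreER ages were separate, the nmrHAS2 ages overlapped, and the difference was 0.93 ± 0.14 (adjusted p = 0.000297). The insulin receptor Insr differed by 0.51 ± 0.11. Without young male nmrHAS2 2 and 3, 3 of the 20 urea cycle and 5 of the 17 glucose genes were called.

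Respiratory chain genes moved together. Of 35 nuclear genes of oxidative phosphorylation 34 were called higher and none lower (median 0.61); 34 fell with age in CreER, and 17 fell and 1 rose in nmrHAS2. The complex I subunit Ndufb9 had 137, 156 and 169 CPM in young and 39.6, 76.1 and 104 CPM in old CreER, and 109, 136 and 149 CPM in young and 77, 103 and 136 CPM in old nmrHAS2. Only in CreER were the ages separate, and the difference was 0.79 ± 0.14 (adjusted p = 0.000502). With RLE size factors 29 of the 35 were called, and without young male nmrHAS2 2 and 3, 28. All 13 mitochondrially encoded genes were called higher (median 1.29, 0.64 in females and 1.78 in males), such as the complex I subunits mt-Nd2 (1.41 ± 0.35) and mt-Nd3 (1.402 ± 0.32). Between genotypes their median was -0.64 at 6 months and 0.60 at 24 months, and the 13 genes together took 10.6, 3.46 and 5.68% of the counts in the young male nmrHAS2 libraries, 10.9 to 11.2% in young male CreER, 7.26 to 9.235% in old male CreER and 8.72 to 10.6% in old male nmrHAS2. Without the 2 low libraries the median was 0.84, with 12 of 13 called. Of 26 cytosolic ribosomal protein genes 1, Rpl3, was called lower, beside 13% of all genes (median -0.04).

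**Figure D5:**
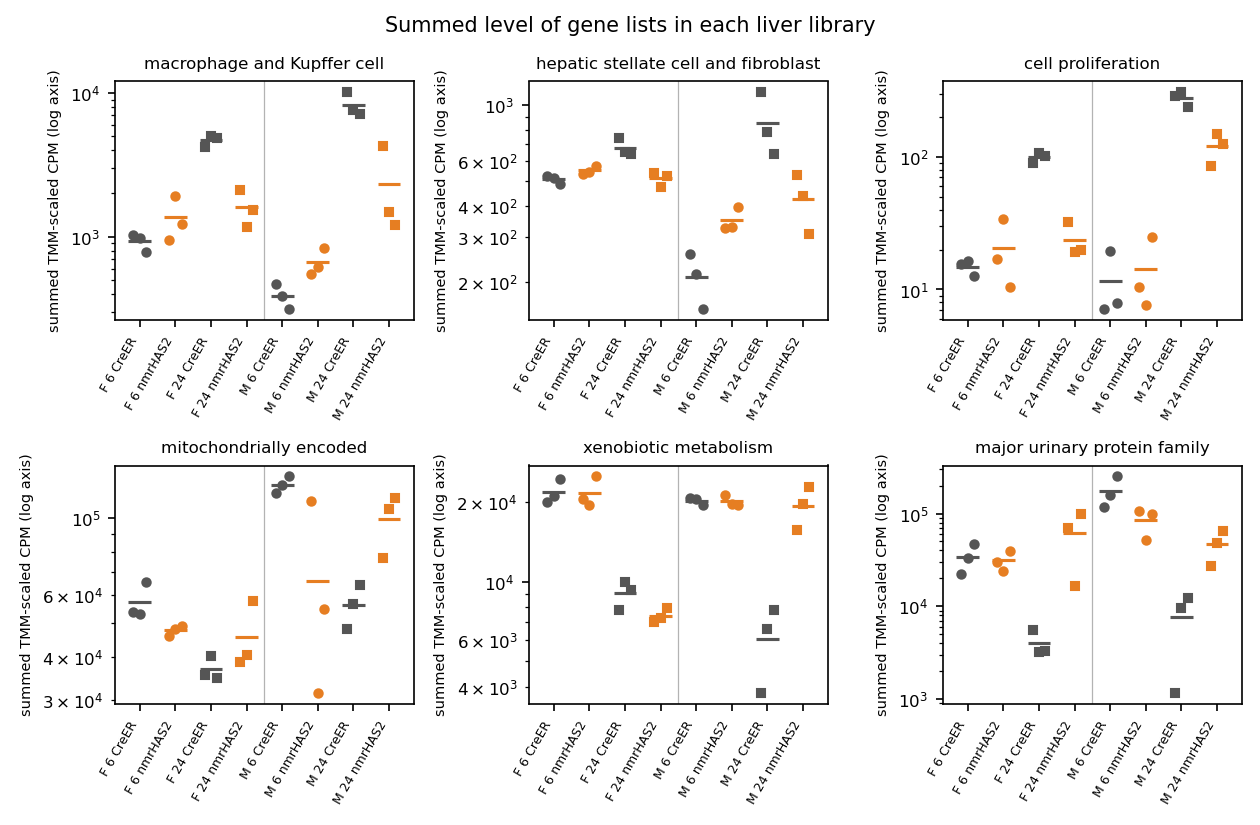
Summed TMM-scaled CPM (log axis) of 6 gene lists in each library, ordered by sex (F, M), age in months and genotype, with a bar at the mean of 3 libraries. Macrophage, stellate cell and proliferation sums are highest in old CreER livers of each sex, and the xenobiotic sum of old nmrHAS2 livers is near the young level in males and overlaps that of old CreER livers in females.

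Genes under the control of growth hormone and sex were among the largest positive values. Of 14 growth hormone axis genes 6 were called higher and 1, the carrier protein gene Igfbp3, lower (median 0.76). Igf1, the growth factor that the liver releases under growth hormone, had 475, 550 and 587 CPM in young and 307, 336 and 425 CPM in old CreER, against 357, 519 and 557 CPM in young and 442, 491 and 636 CPM in old nmrHAS2. Every old CreER liver was below every young CreER and every old nmrHAS2 liver, and the difference was 0.70 ± 0.16 (adjusted p = 0.00343), at 0.69 in females and 0.72 in males. The related Igfbp4 differed by 0.98 ± 0.23, and the growth hormone receptor Ghr by 1.77 ± 0.54; the call of Ghr was lost without young male nmrHAS2 2 and 3 (adjusted p = 0.0843), and its value was 1.13 without old female nmrHAS2 3. Of 18 male-biased liver genes 9 were called higher (median 1.57). The steroid dehydrogenase Hsd3b5 had 257 to 391 CPM in young male CreER and 0.0552, 0.998 and 1.14 CPM in old male CreER, and 163 to 272 CPM in young and 16.5, 67.8 and 83.2 CPM in old male nmrHAS2. The old males of the genotypes were separate, and all 12 females were at 0.48 CPM or less. The organic anion carrier Slco1a1 had 6.68, 24.7 and 25.1 CPM in old male CreER and 166, 282 and 290 CPM in old male nmrHAS2, also without overlap. The call of Hsd3b5 over both sexes (3.79 ± 1.33, adjusted p = 0.0399) was lost in 9 of the 24 fits that leave out 1 library, and that of Slco1a1 (3.49 ± 0.70) in none. Of 23 female-biased genes 5 (Cyp2c40, Cyp2c69, Fmo1, Trim24 and Slc22a29) were called higher, beside 13.8% of all genes, and none lower. Their median was 0.15, and -0.29 with 2 called higher without young male nmrHAS2 2 and 3.

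The major urinary proteins, pheromone carriers made in bulk by the liver under growth hormone and androgen, had 15 of 20 measured genes called higher and none lower (median 4.46). Their summed level was 1151 to 12230 CPM in the 6 old CreER livers and 16680 to 98100 CPM in the 6 old nmrHAS2 livers, with no overlap, from 22240 to 251600 CPM in young CreER and 24200 to 105700 CPM in young nmrHAS2. The family's genes are near-identical copies whose reads can be split between them, so single members are uncertain. Of 17 clock genes 5 were called higher, among them the output factor Hlf (1.29 ± 0.19), Nr1d2 (1.04 ± 0.24), Per2 and Cry2. The labels give no hour of tissue collection, so hour and group cannot be told apart.

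Stress and damage lists were mixed. Of 17 p53 and senescence genes 5 were called lower and 1, Mdm2, higher. Glb1, the gene of the beta-galactosidase used as a senescence stain, differed by -1.16 ± 0.18 and the urokinase receptor Plaur by -3.02 ± 0.66 (-1.93 without young male nmrHAS2 2), and Phlda3 and Igfbp3 were also lower; 2 of the 17 were called without young male nmrHAS2 2 and 3. Neither Cdkn1a (-1.50 ± 0.60, adjusted p = 0.0716) nor Cdkn2a (1.97 ± 1.23, adjusted p = 0.251), inhibitors of the cell cycle, passed. Of 20 oxidative stress genes 8 were called higher, such as Prdx1 (0.90 ± 0.17) and Sod1 (0.73 ± 0.18), and 1 lower, the haem oxygenase Hmox1 (-1.78 ± 0.42). Of 20 unfolded protein response genes 1, Pdia6, was called higher, beside 13.8% of all genes, and its call was lost in 14 of 24 fits that leave out 1 library. Of 24 acute phase and complement genes 4 were called higher, beside 13.8% of all genes: the mannose-binding lectins Mbl2 (1.25 ± 0.23) and Mbl1, Crp and Itih4. The serum amyloid genes Saa1 (-1.43 ± 1.05) and Saa2 (-1.88 ± 1.18) did not pass. Of 16 oncofetal genes 5 were called lower: the imprinted RNA H19 (-4.13 ± 0.90), Golm1 (-1.11 ± 0.33), Afp, Sox4 and Scd2. Of 20 lysosome and autophagy genes 8 were called lower and 1 higher: the lower ones were lysosomal enzymes and proteins such as Hexa, the leukocyte protein Laptm5 (-2.17 ± 0.38) and the sterol carrier Npc2 (-1.08 ± 0.20), and the higher one was Gabarapl1 of autophagosomes.

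The remaining genes named by size or p were Hmgb2, a chromatin protein of dividing cells (-2.01 ± 0.23), Anxa2, a calcium-dependent membrane protein (-2.03 ± 0.24), Itpripl2 (-2.06 ± 0.24), Anln, the scaffold of the cleavage furrow (-2.08 ± 0.25), and Clec4e, a receptor for mycobacterial glycolipid (-3.98 ± 0.91). Higher ones were Upp2, a uridine phosphorylase (3.52 ± 0.86), Slc22a28 (2.97 ± 0.88), Hnf4aos (2.77 ± 0.52), the corticosteroid carrier Serpina6 (2.83 ± 0.95) and Hamp2, a paralogue of the hepcidin gene Hamp (3.10 ± 1.14). Upp2 had 157, 220 and 512 CPM in young and 10, 37.5 and 109 CPM in old CreER, and 55.7, 131 and 240 CPM in young and 87.8, 317 and 556 CPM in old nmrHAS2. Its CreER ages were separate and its nmrHAS2 ages overlapped. Serpina6 and Hamp2 rested on old female nmrHAS2 3, with 6346 and 102 CPM against at most 581 and 8.47 CPM in the other old nmrHAS2 livers, and lost their calls in 7 and 17 of the 24 fits that leave out 1 library; without that liver the values were 1.61 and 1.62. Other calls lost without single libraries were those of Clec4e (adjusted p = 0.0533) and Mmp8 (adjusted p = 0.0501) without young male nmrHAS2 2, Ugp2 (adjusted p = 0.0519) and Serpina1a (adjusted p = 0.0549) without old male CreER 2, and Slc22a28 without old female CreER 3 (adjusted p = 0.0556). Of the genes that spell out a count, Batf3, Blk, Cd79a, Ebp, Epb42, Fmo1, Slc22a29 and Trbc1 lost their call in 2 to 15 of the 24 such fits. The value of Batf3 went from -1.65 to -1.0 without young male nmrHAS2 3, and that of Slc22a29 from 2.72 to 4.49 without young male nmrHAS2 1. Hnf4aos is antisense to Hnf4a, and the sources used here do not say whether counting used the strand.

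Ttn, the giant protein of the muscle sarcomere, had the most negative value of the genes named by size (-6.53 ± 1.23, adjusted p = 0.000903), and its call rested on 1 library. Young female nmrHAS2 3 had 63.4 CPM and young female nmrHAS2 1 had 12.6 CPM of Ttn, the other young livers at most 2.46 CPM. The same 2 libraries and young male nmrHAS2 1 had 77.2, 11.3 and 10.1 CPM summed over 5 skeletal muscle transcripts (Acta1, Ckm, Myh1, Myh4 and Tnnt3, chosen after the data were seen), against a median of 0.405 CPM over all 24. The old female CreER livers had 11 to 13.4 CPM of Ttn with 0.024 to 1.59 CPM of the 5 transcripts. Without young male nmrHAS2 1, the only one of its group with a count (2.46 CPM against 0 and 0), the call was lost (-2.37, adjusted p = 1), and without young female nmrHAS2 3 it was kept (-5.58). The part of muscle RNA in the other values was not tested.

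The called genes were chosen on the mean of both sexes; within that choice both sexes shared the direction in 98.5% of the lower and 95.7% of the higher genes, and the male value was the larger one in 1873 of 2249 and in 2219 of 2391. Separately, males had 1986 genes called lower (11.5%) and 2666 higher (15.4%), and females 128 lower (0.741%) and 10 higher (0.0579%). With RLE size factors males had 2389 lower and 1919 higher, so the share of higher calls moved from 57.3 to 44.5%, and the median over all genes in males moved from 0.14 to 0. With only female libraries of 1 kind compared, which leaves 1 old liver per genotype that is assumed to vary like the other groups, 81 genes were called lower and 71 higher in females, and 29 of these 152 were among the 138. The count in females varied from 1 to 703 when single libraries were left out, and 2521 genes had an unadjusted p under 0.05 there. In a direct test of the sexes 1 gene passed (0.00579%), Cyp2c68, a P450 of the Cyp2c family, while 2489 had an unadjusted p under 0.05 and DESeq2 called 346. Cyp2c68 had 237, 289 and 272 CPM in young and 86.1, 57.8 and 66.7 CPM in old male CreER, against 173, 142 and 141 CPM in young and 190, 270 and 304 CPM in old male nmrHAS2. In females it had 564 to 632 CPM in all 6 young and 424 to 478 CPM in all 6 old livers. The genotypes were separate in old males and overlapped in old females, and the male minus female value was 2.62 ± 0.32 (adjusted p = 0.0017). Differences between the sexes in the lists above were not tested, and the library kinds of the sexes differed.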

How the data were processed

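Total RNA from frozen, pulverised liver was purified with Trizol, DNase and a column, per the labels' protocols. The deposited file holds expected counts per gene that the authors made with Salmon 1.4.0 after trimming with Trim Galore 0.6.5, per the submitters' processing notes; the sources used here name neither genome build nor annotation. Expected counts share reads among near-identical genes, so members of such families are uncertain, and values were rounded to whole counts.

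The 24 liver columns were fitted with edgeR 4.0.16 (R 4.3.3): TMM factors, filterByExpr, 8 group means and a quasi-likelihood test of each contrast, with Benjamini-Hochberg adjustment over the 17270 genes tested and a threshold of 0.05. Errors of log2 values are standard errors from that fit. Levels are CPM after TMM scaling, comparable between libraries but not, for want of gene lengths, between genes. Each library had 20.1 to 97.4 M counts, and the number of libraries limits the precision. Libraries were compared before averaging: none was identical to another of its group. Within groups the correlation of log2 CPM between libraries ran from 0.917 to 0.992. It was lowest for young male nmrHAS2 2 (0.917 and 0.928) and old female nmrHAS2 3 (0.936 with each of the others in its group). On simulated counts of 17007 genes the fit called 58% of genes changed 2-fold in this difference and 89% of those changed 4-fold, with 4 false calls of 151. Those counts were drawn from the fitted dispersions, with 100 genes changed at each fold and none of these among the lowest expressed. They held no library kinds within a group, no outlying livers and far fewer changed genes, so they do not give the false call rate here.

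The members, the 12 cell type and 28 pathway lists and the Mup family were chosen with earlier results of these data known. Named genes were, among the called genes that averaged 2 CPM or more and whose sign did not differ between the sexes, the 8 largest in each direction, the 6 smallest p and up to 3 called members per list, with the hyaluronan list and the transgene whole; a few genes that this rule names are not reported here; pseudogenes, unnamed loci, receptor segments, sex-linked marker genes and Mup genes were left out of the first part. Members named beyond that, to spell out a count of 5 or fewer or because they did not pass, were chosen after their values were seen. Promoter sequences come from RefSeq (GRCm38.p6). Alternatives were RLE size factors, no filter, robust estimation, a replicate block, library kind as a term, males only, females within kind, each library left out, DESeq2 1.42.0 and, added after seeing the data, leaving out young male nmrHAS2 2 and 3.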

Additional observations from a re-analysis of the deposited data

Results flagged for a closer look

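In groups of 6 libraries of a genotype and age, the highest or lowest library stood apart from the other 5 in 36 of 264 checks. The rule is met in about 1 of 20 groups drawn from a normal distribution. These groups pool both sexes, and so library kinds, on an unlogged scale, so that rate need not hold here and the count tests nothing. The checks covered the summed level of each gene list, the TMM factor, the mitochondrial share and the genes named by size, p or a called difference between the sexes. The largest set belonged to old male nmrHAS2 1 among the old nmrHAS2 livers. Its sums were 4272 CPM for macrophage markers (next 2121), 66.56 CPM for T and NK cell markers (next 27.17), 24.08 CPM for dendritic cell markers (next 14.8), 465.4 CPM for chemokines and cytokines (next 260.9) and 311.6 CPM for p53 and senescence genes (next 216). Among single genes it had 9.566 CPM of Ccl2, 8.906 CPM of Clec10a and 21.55 CPM of Pf4.

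Among young nmrHAS2 livers, male 2 was high with 607.9 CPM of B and plasma cell markers (next 437.1), 579.5 CPM of clock genes (next 409.8), 5.642 CPM of Ccl2 and 3.069 CPM of Mmp9. Male 3 was high for cholangiocyte markers (84.2 CPM, next 45.62). Male 1 was high for mitochondrially encoded genes, with 111800 CPM (next 54870) and 10.64% of its counts, a level shared by the young CreER males. Female 2 was high with 3.242 CPM of Acod1 and 107.3 CPM of Mpeg1. Female 3 was high with 22870 CPM of fatty acid oxidation genes (next 14280), 25030 CPM of xenobiotic genes (next 21320) and 63.43 CPM of Ttn.

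Among old CreER livers, male 1 was high with 1123 CPM of stellate cell markers (next 785.1), 1989 CPM of collagen and matrix genes (next 1266), 27.97 CPM of Clec4e, 62.9 CPM of Mmp9 and 138.1 CPM of Pf4. Female 1 was high with 3112 CPM of growth hormone axis genes (next 1494), 9.248 CPM of Hamp2 and 657 CPM of Serpina6, and low with 94.74 CPM of Cxcl13 (next 734.8). Old female nmrHAS2 3 was high for the same 3 items, with 12140 CPM (next 3296), 102.4 CPM of Hamp2 and 6346 CPM of Serpina6. Among young CreER livers, male 1 stood apart for erythroid markers (4196 CPM, next 1151), male 3 for Upp2 (511.9 CPM), female 3 for xenobiotic genes (24480 CPM, next 21080) and female 1 for Acod1 (0.9058 CPM).

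The sexes differed by a direct test in 1 gene, Cyp2c68, with a male minus female value of 2.624 on the log2 scale.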

How the results depend on the processing

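The count of 4640 genes called for the ageing difference stayed within 1.5 times under every alternative run. With all 24 libraries and more than 1 library in each group, it ran from 3594 without the filter to 5102 with DESeq2. It ran from 3615 to 5269 when 1 library was left out, lowest without old male CreER 1 and highest without young male nmrHAS2 1. The 138 genes called in females became 211 with RLE size factors, 405 without the filter, 978 with DESeq2 and 1 to 703 when 1 library was left out (1 without young female CreER 1, 703 without old male nmrHAS2 1). The 1 gene that differed between the sexes became 15 without the filter, 346 with DESeq2 and 1 to 190 when 1 library was left out (190 without young male nmrHAS2 1). The 8 genes that differed at 6 months became 34 with RLE size factors, 37 without the filter, 38 with library kind as a term, 512 with DESeq2 and 0 to 808 when 1 library was left out (808 without young male nmrHAS2 1). The 2960 genes that changed with age in nmrHAS2 became 1874 to 3933. The causes were not tested.

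Over 84 pairs of same-numbered libraries the correlation of deviations had a median of 0.015 and a highest value of 0.595, with 21 over 0.1. Over 168 pairs with different numbers the median was 0.001 and the highest value 0.461, with 31 over 0.1. The medians showed no general pairing by replicate number, and pairing between some of the groups was not tested. With a replicate block the ageing difference had 4720 calls, females 318, the sex difference 5 and the genotypes at 6 months 122.

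Cyp3a11 was the one named gene to reverse, with 1.138 in males only. Of 130 named genes called, 108 kept the call without each library. By a count that does not take a reversal as a loss, 95 kept it under every alternative, and Cyp3a11 is among these 95. With 1 of the 2 library kinds compared, 152 genes were called in females, 29 of them among the 138.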
